A study of Mus musculus with 24 samples.

Results

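Smooth muscle contractile genes were 10 genes chosen by name, Acta2, Actg2, Myh11, Tagln, Cnn1, Des, Mylk, Smtn, Lmod1 and Synpo2, of 45616 gene names on the array, and 19 of its 56605 probes named them by accession. Colon RNA of 24 C57BL/6J mice was measured on Agilent 1-color arrays, with 4 mice in each of 6 groups. Males (M), females (F) and ovariectomized females, written F(OVX), were fed a low fat diet (LFD) or a high fat diet (HFD). Mice were bought at 7 weeks of age, and LFD and HFD held 10% and 45% of kcal as fat and were fed for 14 weeks. All 6 groups, the LFD groups included, received azoxymethane (AOM, a colon carcinogen) at 10 mg/kg and then 1.5% dextran sulfate sodium (DSS, an agent that injures the colon lining) in 3 cycles, and colons were taken 75 days after AOM, so no group was untreated. The labels give the tissue as colon without its layers or its position along the gut. The study's methods name the distal colon, less a piece cut for histology, as the source for the arrays. The genes were compared over the groups and array by array as a measure of the muscle held in each piece of tissue.

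The wall of the colon is wrapped in layers of smooth muscle under the mucosa, and the same muscle lines its arteries. Smooth muscle contracts when calcium and calmodulin activate myosin light chain kinase, which phosphorylates the light chain of smooth muscle myosin so that it pulls on actin. The contractile genes share a program driven by serum response factor (SRF), which binds CArG boxes in their control regions, and by its coactivator myocardin. In RNA of whole tissue, fewer muscle cells and less RNA per muscle cell cannot be told apart.

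Control regions of 3 of the genes are shown because the genes moved together on the arrays. RefSeq promoters of build GRCm38.p6, from 250 bases before to 50 bases after the start of the transcript, were at hand for 7 of the 10 genes. Letters of the CArG box (CC and GG around 6 bases that are A or T, here with at most 1 C or G among the 6) and of the E box (CANNTG, where basic helix-loop-helix factors bind) are in capitals. Both motifs read alike on either strand, and no matches overlapped in these windows.
Acta2 (chr19:34255324-34255623, minus strand): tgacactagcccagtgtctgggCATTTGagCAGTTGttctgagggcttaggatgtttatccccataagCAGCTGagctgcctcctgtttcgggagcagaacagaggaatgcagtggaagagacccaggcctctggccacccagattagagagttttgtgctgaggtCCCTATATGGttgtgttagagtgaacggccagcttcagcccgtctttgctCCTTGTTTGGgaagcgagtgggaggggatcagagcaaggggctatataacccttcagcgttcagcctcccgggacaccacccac
Cnn1 (chr9:22099003-22099302, plus strand): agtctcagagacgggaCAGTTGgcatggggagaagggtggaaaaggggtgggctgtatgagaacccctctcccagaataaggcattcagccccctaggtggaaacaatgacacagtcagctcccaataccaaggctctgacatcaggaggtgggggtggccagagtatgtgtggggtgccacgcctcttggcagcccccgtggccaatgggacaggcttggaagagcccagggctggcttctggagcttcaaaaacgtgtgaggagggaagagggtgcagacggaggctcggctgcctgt
Des (chr1:75360042-75360341, plus strand): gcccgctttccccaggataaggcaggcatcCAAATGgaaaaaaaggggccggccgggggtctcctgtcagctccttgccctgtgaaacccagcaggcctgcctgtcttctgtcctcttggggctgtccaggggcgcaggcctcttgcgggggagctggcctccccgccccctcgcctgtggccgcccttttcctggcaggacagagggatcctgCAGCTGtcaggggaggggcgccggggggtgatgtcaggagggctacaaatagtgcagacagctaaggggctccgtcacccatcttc
Acta2 held 2 such CArG boxes, CCCTATATGG and CCTTGTTTGG, which began 84 and 34 bases before the start. Of all 32851 promoters of the table, 9.98% held at least 1 and 0.822% held 2 or more. The windows of Cnn1, Des, Mylk, Smtn, Lmod1 and Synpo2 held none, and a CArG box with no C or G inside was in none of the 7 (1.63% of all promoters). E boxes numbered 3 in Acta2, 2 each in Des, Lmod1 and Synpo2, 1 each in Cnn1 and Smtn and 0 in Mylk, and 72.3% of all promoters held at least 1.

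The share of probes well above background ran from 40.5% on F(OVX) + LFD replicate 3 and 43.6% on F + HFD replicate 2 to 61.9%. The male, female and OVX arrays were each on a slide of their own, so sex or surgery cannot be told apart from the slide. On every slide LFD was in 1 row and HFD in the other, so diet cannot be told apart from the slide row. Hoxb13, a gene of the distal colon, had log2 signals of 2.18 and 5.04 on M + LFD replicates 1 and 2 and of 12.58 to 14.79 on the other 22 arrays, which sets these 2 arrays apart. Epithelium markers (12 of 12, such as Epcam and Krt8) were well above background on all 24 arrays. Of the 10 contractile genes, 9 were well above background on every array. Lmod1, which encodes an actin filament nucleator of smooth muscle, was so on 14 arrays, and it was tested in no comparison because no group had it on all 4.

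The 9 genes stood high or low together on single arrays. A gene's deviation is its log2 signal minus its own mean over the 24 arrays. Averaged over the 9 genes, the deviation was highest on F + LFD replicate 3 (1.32), followed by F(OVX) + HFD replicate 2 (1.01) and F + HFD replicate 3 (0.83). The average was lowest on F(OVX) + LFD replicate 3 (-1.48) and M + HFD replicate 2 (-1.30), with F(OVX) + LFD replicate 1 at -0.85 and F + LFD replicate 4 at -0.72. On F + LFD replicate 3 all 9 genes were above their own means, by 1.16 to 1.48, and on F(OVX) + LFD replicate 3 all 9 were below, by 1.16 to 2.09. The array with fewest probes above background was thus also lowest for these genes, whereas F + HFD replicate 2, next in probes lost, stood 4th from the highest.

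**Figure D1:**
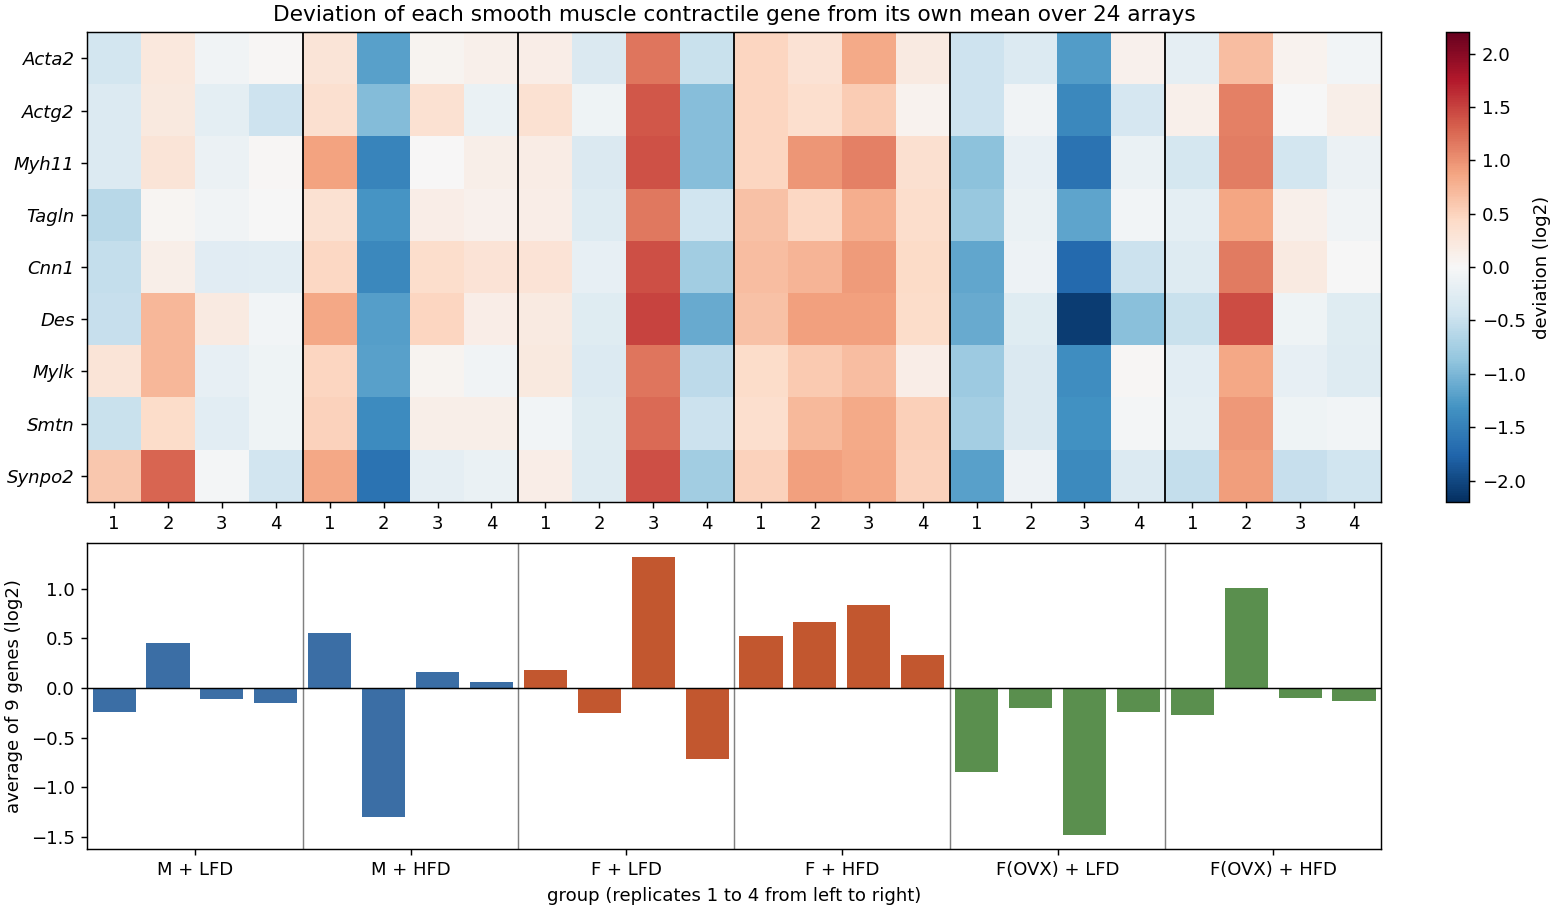
The upper panel shows the log2 deviation of each of 9 genes from its own mean (color) on the 24 arrays in columns, and the lower panel shows the average of the 9 genes per array as bars from 0, colored by sex or surgery. Columns are of nearly one color from top to bottom, and the bars run from -1.48 on F(OVX) + LFD replicate 3 to 1.32 on F + LFD replicate 3.

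The average deviation was 0.59 ± 0.21 (SD, n = 4) in F + HFD, 0.13 ± 0.87 in F + LFD, 0.13 ± 0.59 in F(OVX) + HFD, -0.01 ± 0.31 in M + LFD, -0.13 ± 0.81 in M + HFD and -0.69 ± 0.60 in F(OVX) + LFD. Each pair of neighbors in this order differed by less than the larger SD of the pair. F + HFD arrays spanned 1.41-fold from lowest to highest, whereas F + LFD spanned 4.10-fold and M + HFD 3.62-fold. The wide spans rested on 1 array each. Without F + LFD replicate 3 the span was 1.86-fold and without M + HFD replicate 2 it was 1.41-fold, and spread was not tested between groups. The SD within groups had a median of 0.59 log2 over the 9 genes, against 0.35 over all genes, and the 9 genes lay between the 74.3rd and the 90.1st percentile of all genes in it. The share of variance between the 6 groups had a median of 33.5% for the 9 genes and 24.8% for all genes.

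Pairs of genes were compared over the 24 arrays after group means were subtracted. For the 36 pairs of the 9 genes, Pearson's r was 0.83 to 0.97 with a median of 0.93, and Spearman's rho was 0.76 to 0.97 with a median of 0.90. The largest p of r adjusted over the 45 pairs computed was 0.000675 and that of rho was 0.00122, by a permutation test with 100000 shuffles within groups (two-sided, smallest p 1e-05). Without the 2 arrays farthest from the median, r was still 0.73 to 0.96. Within slides of 8 arrays, the median r of the 36 pairs was 0.92 for males, 0.97 for females and 0.94 for OVX females. The 9 pairs with the dim Lmod1 had r of 0.69 to 0.79, rho of 0.59 to 0.71 and adjusted p of at most 0.00281 for r and 0.0127 for rho, and r was 0.65 to 0.73 without the 2 farthest arrays. The arrays of a pair share their RNA, depth and scan, and the genes were chosen with earlier results of these data known.

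Actin of smooth muscle comes in a vascular form, Acta2, and an enteric form, Actg2. Acta2 had a mean log2 signal of 14.79 ± 0.27 (SD, n = 4) in M + LFD, 14.66 ± 0.68 in M + HFD, 14.97 ± 0.75 in F + LFD, 15.30 ± 0.28 in F + HFD, 14.37 ± 0.55 in F(OVX) + LFD and 14.96 ± 0.38 in F(OVX) + HFD. Over all arrays it spanned 5.28-fold. Actg2 was 11.93 ± 0.28, 12.02 ± 0.62, 12.29 ± 0.96, 12.49 ± 0.21, 11.54 ± 0.58 and 12.46 ± 0.52 in the same order of groups and spanned 6.87-fold. Both were lowest on F(OVX) + LFD replicate 3 and highest on F + LFD replicate 3.

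Myosin of smooth muscle is represented by its heavy chain, Myh11, and its activating kinase, Mylk. Myh11 log2 signals were 11.51, 11.02, 12.75 and 10.42 in F + LFD and 11.82, 12.31, 12.46 and 11.70 in F + HFD. One F + LFD array lay above all F + HFD arrays and the other 3 lay below all of them. In males Myh11 was 11.05, 11.63, 11.22 and 11.37 on LFD and 12.23, 9.89, 11.36 and 11.48 on HFD, where the HFD arrays held both the highest and the lowest value. Mylk spanned 5.87-fold over the 24 arrays and Myh11 8.14-fold.

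Other genes bind or anchor the filaments. Cnn1 encodes calponin, a brake on actin-activated myosin, and spanned 8.72-fold. Tagln (transgelin, an actin-binding protein) spanned 5.50-fold, Smtn (smoothelin, of fully contractile muscle) 6.20-fold and Synpo2 (synaptopodin 2, of the dense bodies and Z discs) 8.24-fold. Des, the muscle intermediate filament desmin, spanned 11.9-fold, from a log2 signal of 7.75 to 11.32, and Lmod1 ran from 2.01, not above background, to 6.16. Lmod1 was well above background on 3 of 4 arrays in M + LFD, in F + LFD and in F + HFD, on 2 in M + HFD and in F(OVX) + LFD and on 1 in F(OVX) + HFD.

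**Figure D2:**
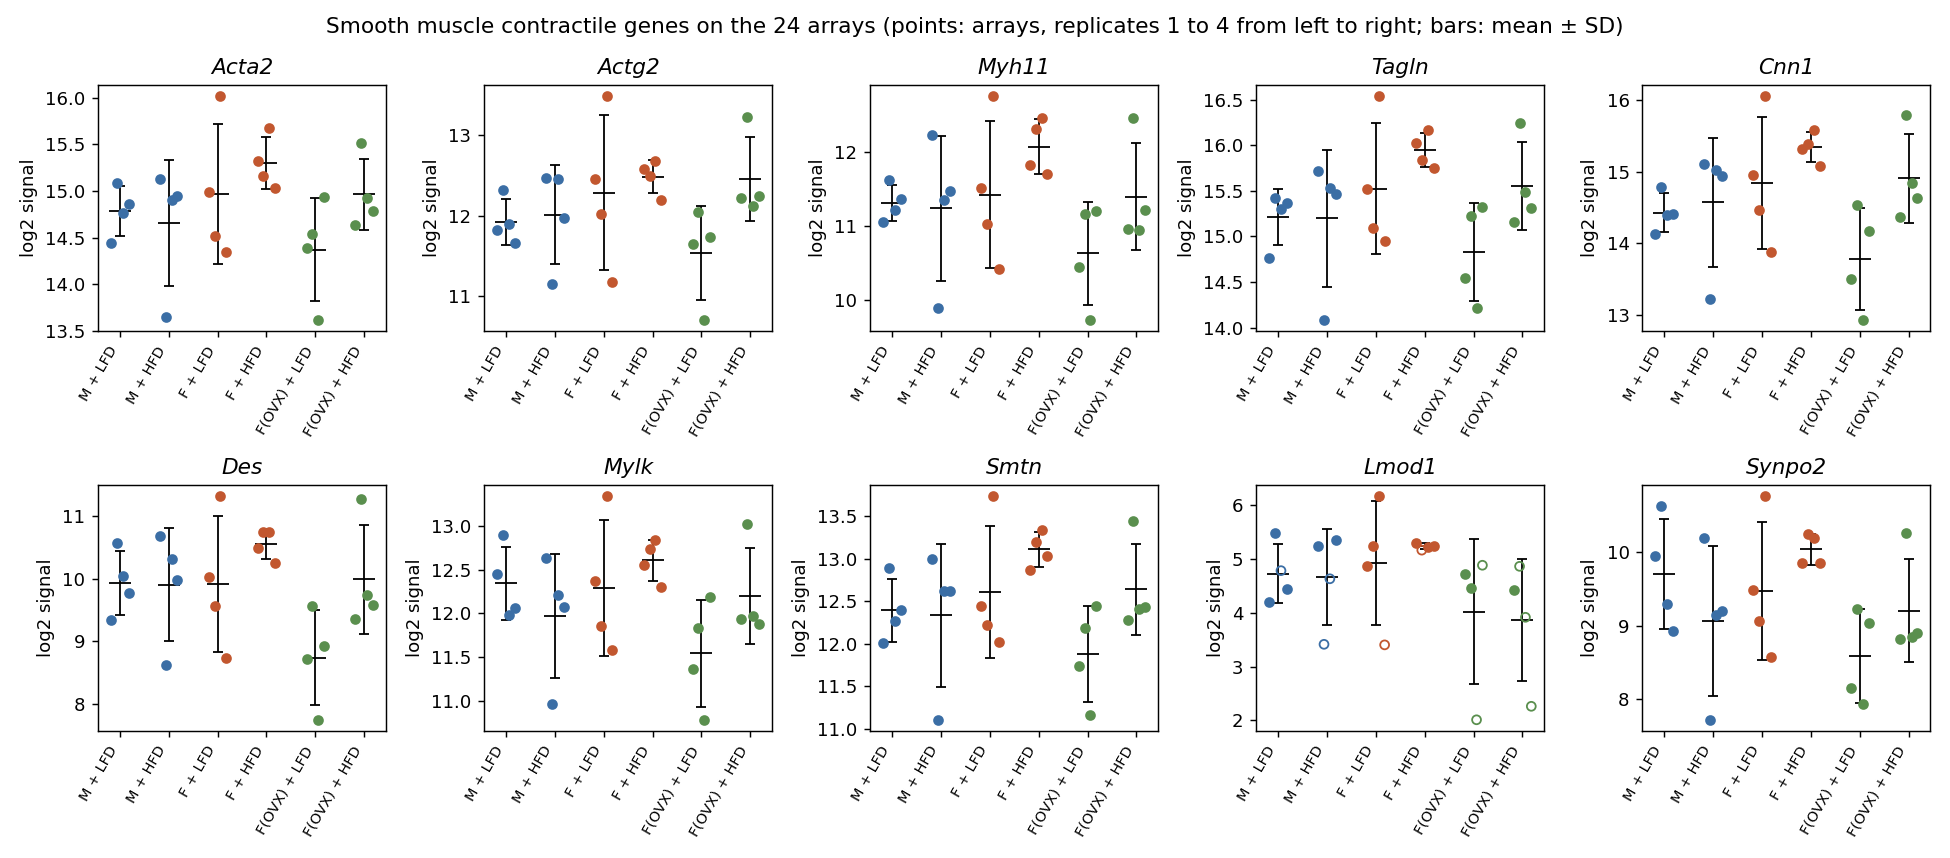
Log2 signal (y axis, quantile-normalized, a scale of its own for each gene) of the brightest probe of each gene in the 6 groups (x axis), with 1 point per array, open where not well above background, and the mean ± SD of 4 arrays as bars. In 9 of the panels M + HFD replicate 2 and F(OVX) + LFD replicate 3 lie low and F + LFD replicate 3 lies high, and Lmod1 has open points in every group.

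HFD was compared with LFD within each sex and surgery, and of these 3 comparisons only that of OVX females had calls among the contractile genes. To be called, a gene had to differ by 1.5-fold or more and to have a p below 0.05 before adjustment, as DEGs did in the study. Of 9 genes tested, 4 were called, all higher on HFD, against 1.18% of all 19211 genes tested called higher and 2.19% called in either direction. The 9 genes moved together on each array, so these calls are not independent of each other. Des had log2 signals of 8.72, 9.57, 7.75 and 8.92 on LFD and 9.35, 11.28, 9.74 and 9.57 on HFD. Only LFD replicate 2 reached into the range of the HFD arrays, and the other 3 LFD arrays were lower than every HFD array. The difference was 1.25 ± 0.49 log2 (SE), with an exact permutation p of 0.0571. Cnn1 had 13.50, 14.53, 12.93 and 14.18 on LFD and 14.36, 15.79, 14.84 and 14.63 on HFD, a difference of 1.12 ± 0.40 (SE, exact permutation p 0.0571). Again 1 LFD array, replicate 2, overlapped the HFD arrays.

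Actg2 had log2 signals of 11.66, 12.05, 10.71 and 11.74 on LFD and 12.23, 13.23, 12.12 and 12.25 on HFD. Every HFD array lay above every LFD array, a pattern that 1.48% of all genes had in this direction and 1 of the 9 contractile genes had. Its difference was 0.92 ± 0.34 log2 (SE), and the exact permutation p of 0.0286 (two-sided) is the smallest that 4 arrays against 4 can give. Tagln had 14.54, 15.23, 14.21 and 15.32 on LFD and 15.16, 16.25, 15.49 and 15.31 on HFD, with 2 LFD arrays inside the HFD range, and differed by 0.72 ± 0.32 (SE, exact permutation p 0.143). The other 5 genes were higher on HFD by 0.59 (Acta2) to 0.76 (Myh11) with unadjusted p from 0.0529 (Smtn) to 0.164 (Synpo2). Over the 9 genes the median difference was 0.76 log2, against 0.01 over all genes tested.

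No call among the contractile genes in OVX females held after adjustment, since every adjusted p was 0.9996 by limma with Benjamini-Hochberg adjustment, and the methods' t-test called 0 of them. The calls rested on few arrays. Leaving out F(OVX) + LFD replicate 3 left 0 calls and a median difference of 0.52, and leaving out F(OVX) + HFD replicate 2 left 0 calls and a median of 0.49. Only Actg2 was called when F(OVX) + LFD replicate 1 was left out, and 7 genes were when F(OVX) + LFD replicate 4 was. The share of all genes called in these refits is not given, so the counts show dependence on single arrays only.

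**Figure D3:**
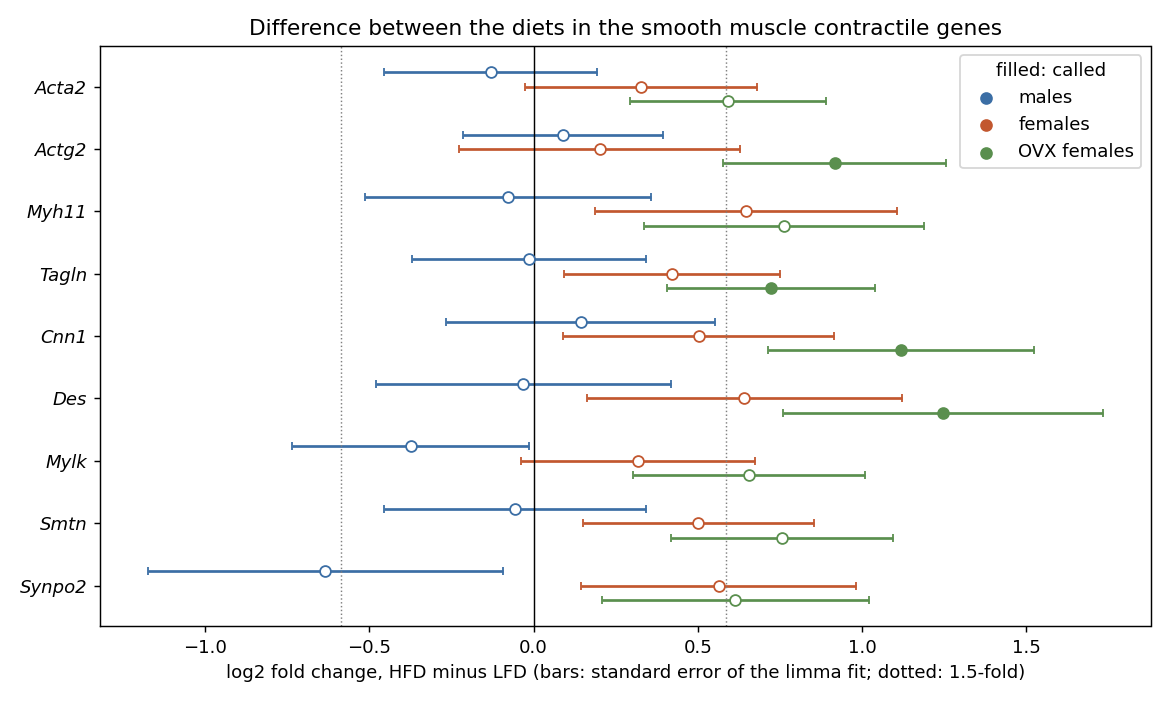
Log2 fold change of HFD over LFD (x axis) of the 9 tested genes (y axis) by sex and surgery, with the standard error of the limma fit as bars, filled points for called genes and dotted lines at 1.5-fold. All points of females and OVX females lie to the right of 0, those of males lie on both sides, and the 4 filled points are Actg2, Tagln, Cnn1 and Des in OVX females.

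In females all 9 genes had higher means on HFD, by 0.20 (Actg2) to 0.65 (Myh11) log2, and 0 of 9 were called, against 1.2% of all genes called and 0.398% called higher. No unadjusted p was below 0.05 (lowest 0.191, Smtn), the lowest exact permutation p was 0.229, and the methods' t-test called 0 as well. Des had 10.03, 9.57, 11.32 and 8.73 on LFD and 10.49, 10.74, 10.75 and 10.24 on HFD, a difference of 0.64 ± 0.48 (SE). Smtn had 12.44, 12.22, 13.74 and 12.02 on LFD and 12.87, 13.20, 13.33 and 13.03 on HFD, a difference of 0.50 ± 0.35 (SE). In both genes the highest array was F + LFD replicate 3 and the other 3 LFD arrays were below every HFD array. Without that array 8 of the 9 genes were called, all but Actg2, with a median difference of 0.88 log2, while 485 genes of the whole array were called in place of 264.

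In males 0 of 9 genes were called, against 4.3% of all genes, and no unadjusted p was below 0.05. The methods' t-test called 0 too. Differences ran from -0.63 ± 0.54 log2 (SE) for Synpo2 to 0.14 ± 0.41 for Cnn1, with 7 genes lower and 2 higher on HFD. Cnn1 had 14.13, 14.78, 14.40 and 14.41 on LFD and 15.10, 13.22, 15.02 and 14.94 on HFD. HFD replicates 1, 3 and 4 were above every LFD array and HFD replicate 2 was below every one of them. Without M + HFD replicate 2 the median difference moved from -0.06 to 0.36, and Cnn1 alone was called. Without M + LFD replicates 1 and 2, the arrays with little Hoxb13, 0 genes were called and the median was -0.05.

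By their brightest probes, single genes departed from the others on these same 2 arrays, most of all Synpo2. Synpo2 had log2 signals of 9.94, 10.63, 9.30 and 8.93 in M + LFD and 10.20, 7.72, 9.15 and 9.19 in M + HFD. On M + LFD replicates 1 and 2 its deviation exceeded the mean deviation of the other 8 genes by 0.95 and 0.94, and on the remaining 22 arrays this excess was between -0.46 and 0.34. For Mylk the excess was 0.60 on M + LFD replicate 1, while its 0.32 on replicate 2 was close to its 0.31 on F(OVX) + LFD replicate 4. Tagln (-0.42 and -0.45) and Cnn1 (-0.30 and -0.35) departed the other way on both arrays, and for both genes the value on replicate 2 was the lowest of all 24 arrays. Mylk's 3 probes all lay above their own means on M + LFD replicates 1 and 2, and the third (A_55_P2728282) had its highest value of all arrays on M + LFD replicate 2. The dim second probe of Synpo2 did not show the excess on replicate 1. Its log2 signals were 3.27, 4.48, 4.39 and 3.76 in M + LFD, lowest on replicate 1, and 2.10 to 5.84 over all arrays. What sets these arrays apart was not tested.

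Averaged over males, females and OVX females, 1 of 9 genes was called, Cnn1 at 0.59 ± 0.26 log2 (SE), against 0.773% of all genes called and 0.201% called higher. All 9 genes were higher on HFD, by 0.18 (Synpo2) to 0.62 (Des), and the adjusted p was 0.984 for each by limma with Benjamini-Hochberg adjustment. The call of Cnn1 was lost without any 1 of 11 of the 24 arrays, and 3 genes were called without M + HFD replicate 2 or F + LFD replicate 3. The 11 were M + LFD replicate 1, F + HFD replicates 2 and 3, M + HFD replicates 1, 3 and 4, F(OVX) + HFD replicate 2, F + LFD replicates 2 and 4 and F(OVX) + LFD replicates 1 and 3. There were 2 calls without M + LFD replicate 2, F(OVX) + LFD replicate 2 or F(OVX) + HFD replicates 1 or 4.

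The diet effects themselves were compared between the sexes and surgery in 1 fit of all arrays, and these 3 comparisons share arrays. The difference between males and females had 0 of 9 genes called (2.95% of all genes), between OVX females and females 0 of 9 (1.52%), and between males and OVX females 0 of 9 (6.16%), and no unadjusted p was under 0.05 in any of them. In males minus OVX females all 9 differences were negative, from -0.72 ± 0.50 (SE, Acta2) to -1.28 ± 0.74 (Des), with the lowest p of 0.0755 for Mylk. The calls in OVX females are therefore not shown to differ from males or females. Single arrays brought in calls. Without M + HFD replicate 1, Synpo2 was called against females and Synpo2 and Mylk against OVX females. Without F + LFD replicate 3, Synpo2 was called in males minus females and Mylk in males minus OVX females, the latter also without F(OVX) + LFD replicate 4, and Actg2 was called in OVX females minus females without F + LFD replicate 4.

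OVX females were compared with females over both diets. All 9 genes were lower in OVX females, and 5 were called, against 2.15% of all genes called and 1.68% called lower. These were Des (-0.87 ± 0.37 log2, SE), Synpo2 (-0.86 ± 0.36), Cnn1 (-0.74 ± 0.32), Myh11 (-0.73 ± 0.34) and Smtn (-0.60 ± 0.28). Their adjusted p was at least 0.768 by limma with Benjamini-Hochberg adjustment, and surgery cannot be told apart from the slide. Because the genes moved together on each array, the 5 calls are not independent of each other. The calls fell to 0 without either LFD replicate 3, of F or of F(OVX), and without the 2 arrays with fewest probes above background. There was 1 call without F(OVX) + LFD replicate 1 or F(OVX) + HFD replicates 1 or 4, 2 without F + HFD replicate 3, and 3 when the array left out was F + LFD replicate 1, F + HFD replicate 2, F(OVX) + HFD replicate 3, M + HFD replicate 3 or M + LFD replicates 3 or 4.

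Markers of other cell types moved in the same comparison. Of 8 tested enteric neuron markers 7 had lower means and 6 were called lower in OVX females, among them Prph (-1.93 ± 0.75 log2, SE), Ret (-1.30 ± 0.49), Uchl1 (-1.16 ± 0.48), Vip (-1.05 ± 0.40) and Elavl4 (-0.96 ± 0.25). The glial factor Sox10 (-1.27 ± 0.47), the fibroblast gene Fbln1 (-0.59 ± 0.27) and the thin filament genes Cald1 (-0.74 ± 0.25) and Tpm2 (-0.69 ± 0.31) were called lower as well. Enteric neurons and glia lie between and within the muscle layers. Of 10 neuron markers 4 were well above background on all arrays, and the signal summed over these 4, of which Snap25 was the brightest, ran from 12.41 to 13.04 log2 in F + LFD, 12.35 to 13.19 in F + HFD, 12.14 to 13.02 in F(OVX) + LFD and 12.22 to 12.67 in F(OVX) + HFD. The mean log2 signal of the same 4, in which each gene counts alike, ran from 8.70 to 9.87, 9.22 to 10.30, 8.65 to 9.04 and 8.70 to 9.74 in the same order. Their part in the difference of the contractile genes was not tested.

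Between males and females 0 of 9 genes were called (5.57% of all genes), all 9 being lower in males by 0.29 (Mylk) to 0.59 (Cnn1) log2. No unadjusted p was below 0.05, with the lowest of 0.0523 for Tagln, and sex cannot be told apart from the slide. Tagln and Smtn were called without M + HFD replicate 1, Tagln without M + HFD replicate 3 or F + LFD replicate 2, and Actg2, Tagln and Cnn1 without F + LFD replicate 4.

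Probes of the same gene mostly moved together. The other probes of Myh11, Cnn1, Mylk and Smtn correlated with the brightest one at r = 0.86 to 0.98 over 24 arrays with group means subtracted. Acta2 was the exception with probes of 1 accession that disagreed in size. Probe A_51_P450957 spanned 0.96 log2 over all arrays and had r = 0.67 with the brightest probe, which spanned 2.40, while the third probe spanned 2.85 with r = 0.90. The second probe of Synpo2 was well above background on 14 arrays and had r = 0.76. In OVX females the difference between the diets was 0.59 ± 0.30 log2 (SE), 0.32 ± 0.17 and 0.16 ± 0.32 for the brightest Acta2 probe, for A_51_P450957 and for A_52_P210078. With the mean of all probes of a gene, 6 of the contractile genes were called there, the same 4 with Smtn and Synpo2. Tested by itself, the second Synpo2 probe was called in males against females (-0.99 ± 0.38, SE) and in the average diet effect (0.64 ± 0.31). The second Cnn1 probe was not called in that average (0.55 ± 0.29). For OVX females against females, A_52_P210078 of Acta2 was called, while the second probe of Smtn and A_55_P1988531 of Myh11 were not.

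**Figure D4:**
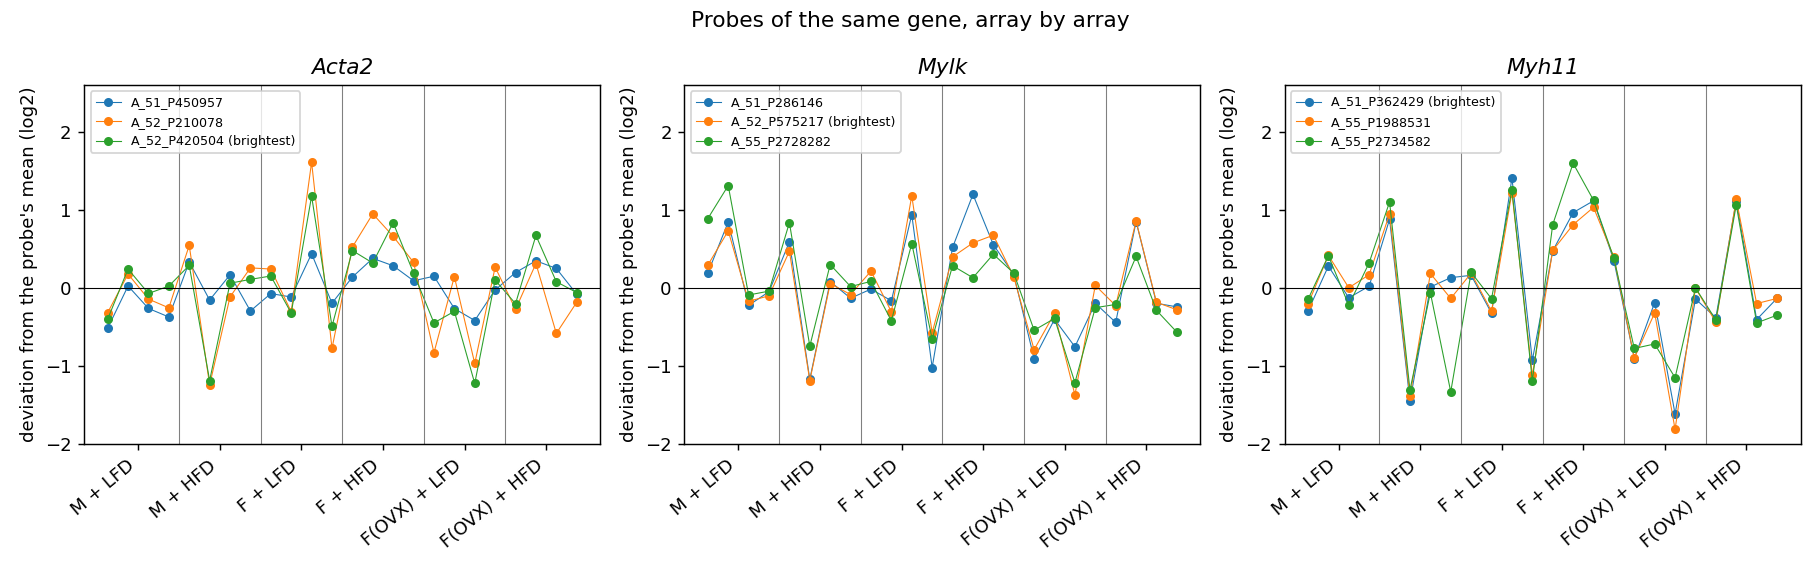
Deviation of each probe from its own mean (y axis, log2) on the 24 arrays (x axis, replicates 1 to 4 of each group from left to right) for 3 probes each of Acta2, Mylk and Myh11, joined by thin lines to aid the eye. Probe A_51_P450957 of Acta2 stays within a span of 0.96 while the other 2 Acta2 probes span 2.40 and 2.85, and A_55_P2728282 of Mylk is high on M + LFD replicates 1 and 2.

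Other genes were ranked by Pearson's r with the average of the contractile genes over 24 arrays, group means subtracted, as a description with no test. Of 22373 genes compared the median r was 0.01, and 145 genes (0.648%) had an r of at least 0.8. The 10 genes most like the average were Myl9 (r = 0.99), the regulatory myosin light chain that Mylk phosphorylates, Tpm2 (0.98), a tropomyosin of the thin filament, Pdlim3 (0.97), Rbpms2 (0.97), Mrvi1 (0.96), Enah (0.96), Svil (0.96), Pgm5 (0.96), Pnck (0.95) and Synm (0.95). Pdlim3, Pgm5, Svil and Synm encode proteins of the cytoskeleton and its anchoring sites, Enah an actin regulator, and Mrvi1 a substrate of the cGMP-dependent kinase. Each contractile gene had an r of 0.91 (Synpo2) to 0.98 (Cnn1 and Myh11) with the average of the others, without the gene itself. At the other end were Gpn2 (-0.82), Mybl1 (-0.75), Khdc3 (-0.75) and 2 probes without a symbol (both -0.75).

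Lists of genes of the same pathway followed in part. In the list of thin filament genes 14 of 17 had an r of at least 0.5 (median 0.77), against 5.22% of all genes, and among channels and receptors of smooth muscle 9 of 11 compared did (median 0.68), led by the calcium channel gene Cacna1c (0.86) and the potassium channel subunit Kcnmb1 (0.77). The tachykinin receptor gene Tacr2 went the other way (-0.64). Of 12 genes around the myosin light chain 5 had an r of at least 0.5, namely Myl9, Prkg1 (0.89), Arhgef25 (0.85), Ppp1r14a (0.80) and Myl6 (0.59), whereas Rhoa (-0.15), Rock1 (-0.05) and Rock2 (0.05), which all cells use, were near 0. Of 10 genes listed under smooth muscle transcription 4 did, Myocd (0.76), Srf (0.75), Foxf1 (0.53) and the structural junctophilin gene Jph2 (0.80). Of 14 compared paralogues 4 did, the cardiac and skeletal actins Actc1 (0.94) and Acta1 (0.78), the nonmuscle myosin Myh10 (0.69) and Synpo (0.54). Actb (0.13), Cnn2 (0.01) and Tagln2 (-0.16) were among those that did not. The actin genes are nearly alike in their coding sequences, and cross-hybridization between their probes was not tested.

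Lists of other cell types had medians of 0.64 for pericytes and vascular muscle (7 genes), 0.62 for enteric neurons (8), 0.59 for enteric glia (4), 0.36 for fibroblasts (12), 0.32 for endothelium (8), 0.21 for epithelium (12), 0.13 for interstitial cells of Cajal (6), 0.11 for genes of position along the colon (5), 0.08 for mesothelium (2), -0.00 for skeletal muscle (5), -0.04 for adipocytes (4) and -0.22 for leukocytes (10). Single genes departed from their list. The pericyte gene Cspg4 reached 0.85, the pacemaker cell gene Etv1 0.77 and the neuron gene Snap25 -0.70. Ckm, the muscle creatine kinase of the skeletal list, had an r of 0.87 and was well above background on 14 arrays. The rest of that list was mixed. Tnni2 and Tnnt1 were well above background on 24 arrays, Atp2a1 on 23, Mylpf on 17, Tnnt3 on 14, Tnnc2 on 12, Pvalb on 11, Myh2 on 7, Myh7 and Casq1 on 4 and Mb on 3, whereas Myh1, Myh4 and Actn3 were so on 0 of 24. Hoxb13 had an r of -0.05.

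**Figure D5:**
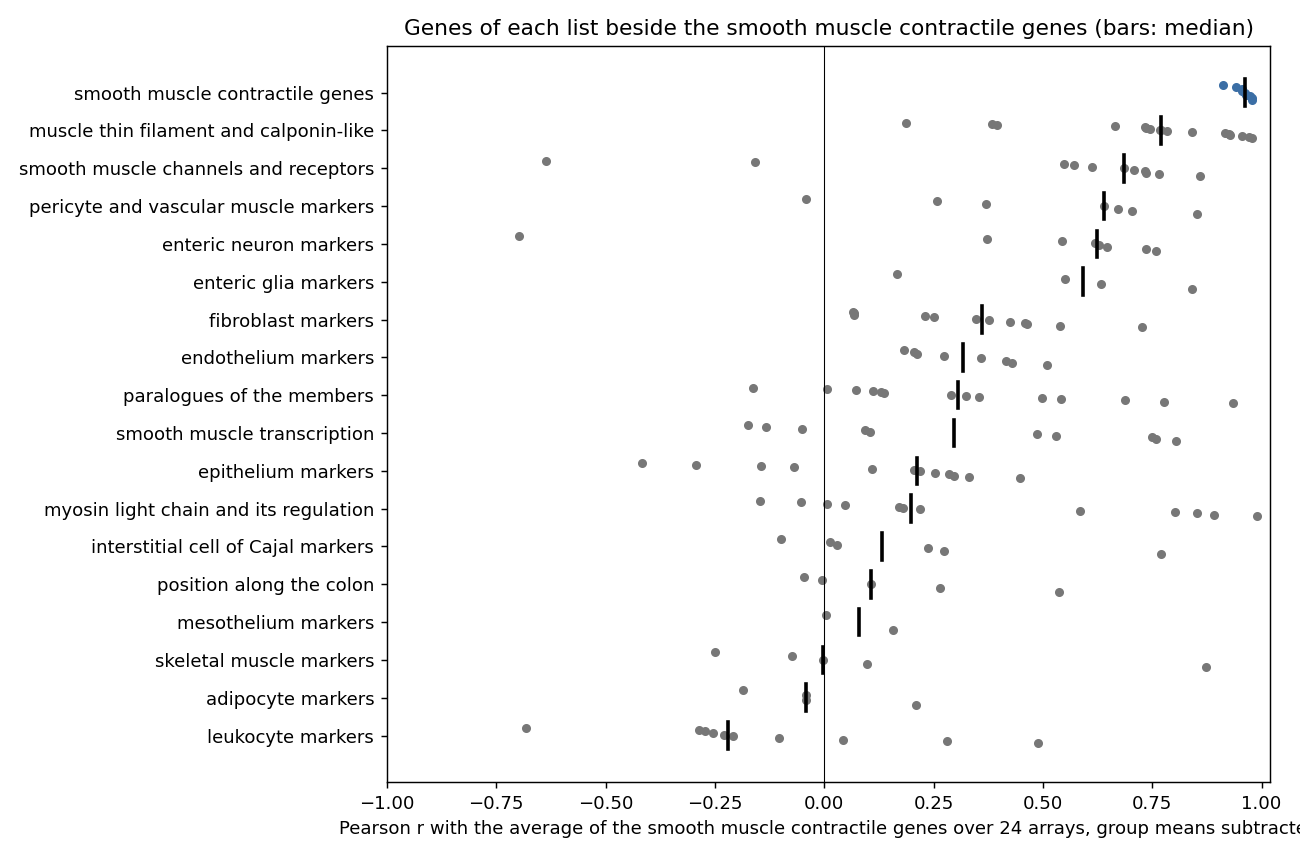
Pearson's r of each gene with the average of the contractile genes over 24 arrays with group means subtracted (x axis), by list (y axis), with 1 point per gene and the median as a bar. The contractile genes, each set against the average of the others, lie at 0.91 to 0.98. Thin filament genes have a median of 0.77, and leukocyte markers have a median of -0.22.

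In the diet comparisons few genes of these lists were called beside the contractile genes. In OVX females the calls were the pericyte gene Cspg4 (0.90 ± 0.36 log2, SE), Acta1 (0.73 ± 0.29), Etv1 (0.63 ± 0.25), Hoxa5 (-0.74 ± 0.20) and the skeletal troponin gene Tnni2 (-1.31 ± 0.48). Thin filament genes were higher on HFD in 16 of 17 cases there with 0 called (median 0.28), while leukocyte markers were lower in 10 of 10 with 0 called (median -0.36). The summed signal of the 9 contractile genes tested was 15.50 to 16.72 log2 in F(OVX) + LFD and 16.61 to 17.74 in F(OVX) + HFD, that of 12 epithelium markers was 18.26 to 18.75 and 18.64 to 18.77, and that of the 9 leukocyte markers well above background on all arrays 13.73 to 14.48 and 13.43 to 14.38. In females S100b of glia (1.003 ± 0.43), Abcc9 of pericytes (0.67 ± 0.27) and Fbln1 (0.59 ± 0.21) were called. In males the calls were Hoxd13 (4.75 ± 1.41), Ano1 (1.54 ± 0.51), Mfap5 (0.92 ± 0.34), Itpr1 (0.65 ± 0.25), Prkcq (-0.72 ± 0.27), Cdx2 (-1.77 ± 0.53), Cidec (-3.06 ± 1.14) and Hoxb6 (-3.27 ± 1.43), among them 2 Hox genes and Cdx2 that vary along the gut. Cfd of adipocytes was called in the average over the 3 diet comparisons (-2.39 ± 1.104). No adjusted p of these was below 0.05 by limma with Benjamini-Hochberg adjustment, and their part in the contractile genes' differences was not tested.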

How the data were processed

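Colon RNA of 24 mice was measured, with groups and replicate numbers as the labels give them, at 4 arrays per group where the methods give 5 animals. The deposited files hold linear spot intensities that the authors extracted with Agilent Feature Extraction 11.0.1.1 and corrected for background, with flags (score 0 or 1) that the software deposited for spots well above background, saturated or outliers. Control spots were left out, outlier spots were set to missing, and intensities were log2-transformed and quantile-normalized over 24 arrays, as in the methods. Accessions gave 32994 probes (58.3%) a symbol through a RefSeq table of GRCm38.p6. Each gene's brightest probe stood for it, and genes entered a test where all 4 arrays of at least 1 group compared had this probe well above background.

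HFD was compared with LFD on the 8 arrays of each sex or surgery, and other contrasts in 1 fit of 24 arrays, by limma 3.58.1 (lmFit, eBayes; R 4.3.3). Calls used a fold change of at least 1.5 and unadjusted p under 0.05, with Benjamini-Hochberg adjustment over all genes tested. Single genes were also tested by exact permutation over 70 assignments, and correlations were computed in Python 3.11.15 with numpy 2.4.6. Precision is limited by the number of arrays. In simulated data with noise independent between genes, 90.5% to 100% of 200 genes changed 4-fold were called, depending on the comparison. Smaller changes, such as those of the contractile genes, were not simulated. No diet comparison had a gene with an adjusted p under 0.05, while 1251, 643 and 709 genes had an unadjusted p under 0.05 in males, females and OVX females, and the methods' t-test called 489, 125 and 209 genes.

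The named genes were all 10 contractile genes with every probe, up to 5 called genes per diet comparison from each of 17 other lists, largest change first, the 10 highest and 5 lowest in r, and Hoxb13. In males and in the last comparison all called genes of the lists are given, except that a few genes of the lists are not reported here, and genes named for their r or as markers beyond this rule were chosen after their values were seen. The genes and lists were chosen with earlier results of these data known. Replicate numbers are also columns of the slide. Deviations of arrays of the same number correlated at r = 0.26, 0.38, 0.51 and 0.22 in females, so here the numbers pair the arrays, while in males (-0.25 to 0.09) and OVX females (-0.06 to 0.32) not every pair did so. All tests of the report are without this block, and fits with it were an alternative.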

Additional observations from a re-analysis of the deposited data

Results flagged for a closer look

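Within groups of 4 arrays, 1 array stood apart from the other 3 in 8 of 60 sets of values tested, by a gap to its nearest neighbor that took up more of the group's range than Dixon's limit allows. Chance gives about 1 in 20. M + HFD replicate 2 was low in Acta2 (gap over range 0.845), Tagln (0.849) and Cnn1 (0.916). F(OVX) + HFD replicate 2 was high in Actg2 (0.883), Mylk (0.916), Smtn (0.873) and Synpo2 (0.939). F(OVX) + LFD replicate 3 was low in Lmod1 (0.853), where it was not above background. The sets are not independent, because the contractile genes moved together on each array.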

How the results depend on the processing

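The number of contractile genes called depended on single arrays and on the settings. The share of all genes called under each setting is not given beside these counts, and it can change too. With each array left out in turn it was 0 to 1 in males, 0 to 8 in females, 0 to 7 in OVX females, 0 to 3 in the average over the 3 diet comparisons, 0 to 1 for the diet effect in males minus females and in OVX females minus females, 0 to 2 in males minus OVX females, 0 to 3 for males against females and 0 to 7 for OVX females against females. Scaling to the 75th percentile gave 1 call in females, 2 in the average and 2 for males against females. Correction by normexp gave 0 in the average and 1 for males against females, and probes well above background on all arrays gave 2 in the average. The mean of all probes gave 0 in the average, as did leaving out M + LFD replicates 1 and 2. The methods' t-test gave 0 in OVX females. In OVX females Smtn was called besides with scaling to the 75th percentile, with normexp and with probes well above background on all arrays, and Tagln was not called with that scaling or with no filter on dim probes. Smtn was not called for OVX females against females with that scaling or with the mean of all probes. With the replicate block, calls numbered 7 in OVX females, 2 in the average and 3 for OVX females against females, and 0 in males and 0 in females as without it. Leaving out the 2 arrays with fewest probes above background, an alternative chosen after seeing the data, gave 0 calls in OVX females, 0 in the average and 0 for OVX females against females. The cause was not tested. No called gene changed its direction under any setting run. The median r of pairs was 0.92 to 0.95 and that of thin filament genes 0.74 to 0.78 over the alternatives run. Signal over background limited Lmod1, which was not tested.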
